A study of Mus musculus with 6 samples.

Results

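The transcripts of 10 class I cytokine receptor genes of myeloid and erythroid cells were examined in mouse AML cells with and without *Phf6*. The genes were taken by name from a table of 54532 genes. They were *Csf2rb* and *Csf2rb2*, which encode β chains, the α chain genes *Csf2ra*, *Il3ra* and *Il5ra*, the receptors *Csf3r* and *Epor*, and *Il6ra*, *Il4ra* and *Il2rg*. Each name matched 1 gene. RNA-sequencing covered GFP+ leukemia cells sorted from bone marrow in *WT Phf6,RE9a* cells (Phf6 fl/y, 3 libraries, replicates 1, 2 and 3) and *VC Phf6,RE9a* cells (Vav1-Cre;Phf6 fl/y, 3 libraries, replicates 11, 12 and 13), written below as WT and VC. The Vav1 promoter drives Cre in blood cells, so that *Phf6* is deleted throughout the hematopoietic system. In both groups, the leukemia was started with a retrovirus that carries RUNX1-ETO9a (RE9a), a truncated form of the fusion protein of t(8;21) AML, and GFP, in lineage-negative fetal liver cells that were then passed serially through male recipients. The floxed allele and the oncogene were thus shared by both groups, and Cre was carried only by VC cells. The study worked with male mice of 6 to 8 weeks. The passage of the sequenced cells was not given in the sources used here, nor whether the 3 libraries of a group came from separate leukemias, so that p-values measure the spread between these libraries, which may be technical.

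Class I cytokine receptors have no kinase of their own. A ligand brings chains together, JAK kinases bound to their cytoplasmic tails become active, and STAT proteins are recruited and phosphorylated. The receptors for GM-CSF, IL-3 and IL-5 each pair a ligand-specific α chain with a common β chain (*Csf2rb*). Mice carry a further β chain (*Csf2rb2*) that serves IL-3 only. The G-CSF receptor (*Csf3r*) and the erythropoietin receptor (*Epor*) work as pairs of the same chain and are known for their part in neutrophil and red cell production. *Il6ra* binds IL-6 and signals through gp130, *Il4ra* binds IL-4, and *Il2rg* is the common γ chain of the receptors for IL-2, IL-4, IL-7, IL-9, IL-15 and IL-21.

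Total counts per library ran from 15675358 to 16817994. Levels are given as FPKM (fragments per kilobase of gene, scaled to library size), as deposited, and changes as the log2 fold change of VC over WT cells from edgeR's quasi-likelihood test on the counts, with its standard error (SE) and the Benjamini-Hochberg adjusted p over the 14169 genes with enough counts. *Phf6* was at 9.76, 8.01 and 9.84 FPKM in WT and at 3.26, 2.61 and 2.78 FPKM in VC libraries (log2 fold change -1.66, SE 0.13, adjusted p = 9.32e-05). Its level followed the labels, although a gene total cannot separate deleted from remaining exons. Within a group, libraries varied beyond counting error, and the FPKM of a gene rests on the authors' gene length, which sets the order of genes but not a change between groups.

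Of the 10 receptor genes, all of which passed the filter on low counts, 4 were higher (*Csf2ra*, *Csf3r*, *Epor* and *Il6ra*) and 5 lower (*Csf2rb*, *Csf2rb2*, *Il3ra*, *Il4ra* and *Il2rg*) in VC cells, and *Il5ra* did not pass the threshold. Over all 14169 genes tested, 44.2% were called, 21.5% higher and 22.7% lower. The median log2 fold change was -0.03 over the 10 receptor genes and 0.01 over all genes tested. The FPKM of the groups did not overlap for 9 of the 10 receptor genes, as for 57.3% of all genes tested, the exception being *Il5ra*.

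**Figure D1:**
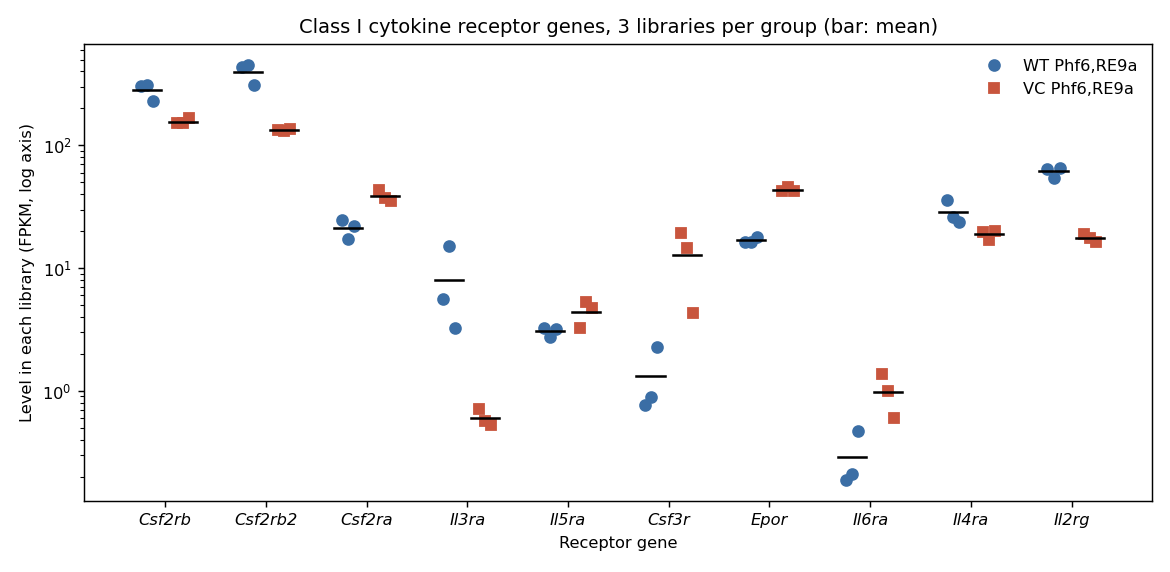
FPKM (log axis) of each receptor gene in the 3 WT libraries (circles) and the 3 VC libraries (squares), with the mean of each group as a bar. *Csf2rb* and *Csf2rb2* stand above the other genes in every library, and the groups overlap only at *Il5ra*.

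The β chain genes *Csf2rb* (chr15:78325752-78353847, plus strand) and *Csf2rb2* (chr15:78282507-78305721, minus strand; GRCm38) lie close together and are nearly alike, so how far reads can tell them apart comes first. Along 2628 aligned coding bases of their GENCODE M21 transcripts, 2503 were identical (95.2%). Of all runs of 150 coding bases, the length of a read, 6.5% of those of *Csf2rb* occurred letter for letter in *Csf2rb2*. Runs were taken from coding bases only, 2688 of 4900 transcript bases in *Csf2rb* and 2634 of 4740 in *Csf2rb2*. Near-matches were not counted, so the share of reads that fit both genes may be larger. Over aligned stretches of 75 bases, the number of differences ran from 0 to 14, with a median of 2. The stretch with the most differences is shown first because it lets a read be placed. A stretch with no difference follows, whose 75 bases alone cannot place a read, although a read of 150 bases runs past it. Capitals mark the bases that differ, and positions count from the first base of the start codon.
Csf2rb, coding bases 316 to 390: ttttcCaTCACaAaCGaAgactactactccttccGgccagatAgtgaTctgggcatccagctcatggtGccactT
Csf2rb2, coding bases 319 to 393: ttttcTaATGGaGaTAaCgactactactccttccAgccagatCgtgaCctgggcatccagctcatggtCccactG
Csf2rb, coding bases 485 to 559: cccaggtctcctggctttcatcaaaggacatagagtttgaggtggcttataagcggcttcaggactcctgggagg
The tool that assigned reads to genes is not given in the sources used here, and how it treated reads that fit both genes is unknown, so the level of each β chain gene alone is less certain than their sum.

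*Csf2rb*, the common β chain, stood at 306, 313 and 229 FPKM in WT and at 152, 151 and 166 FPKM in VC libraries. It was lower in all 3 VC libraries (log2 fold change -0.84, SE 0.14, adjusted p = 0.00263). *Csf2rb2*, the β chain that serves IL-3 alone, fell further. Its levels were 434, 453 and 310 FPKM in WT and 132, 130 and 137 FPKM in VC libraries, a mean of 399 ± 77.8 against 133 ± 3.34 FPKM (SD, n = 3), and its log2 fold change was -1.57 (SE 0.16, adjusted p = 0.000236). Among the WT libraries, replicate 3 was the lowest for both β chains, and the VC libraries lay close together. These were highly expressed genes. The mean FPKM of *Csf2rb2* over the 6 libraries was at or above that of 99.0% of the genes tested, and that of *Csf2rb* at or above that of 98.7%.

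Because the 2 β chains fell to unequal extents, their ratio was compared within each library. *Csf2rb2* over *Csf2rb* was 1.42, 1.45 and 1.35 in WT and 0.870, 0.862 and 0.822 in VC libraries. The means were 1.41 ± 0.049 and 0.852 ± 0.0256 (SD, n = 3), and all WT values lay above all VC values (exact permutation test, 2-sided, p = 0.1, the smallest p that 3 against 3 libraries allow). The order of the β chains depended on the gene length used. The authors' length for *Csf2rb*, 7277 bases, is longer than its transcript with the longest coding region, 4900 bases, while both are 4740 bases for *Csf2rb2*. With transcript lengths, an alternative chosen after the data were seen, the ratio was 0.947 ± 0.033 in WT and 0.573 ± 0.0172 in VC cells, so that *Csf2rb2* no longer exceeded *Csf2rb* in WT cells, while the fall in the ratio remained.

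The 3 α chains, which give the receptors their ligand, took different courses. *Csf2ra* (chr19:61224402-61228418), which binds GM-CSF, was at 24.8, 17.2 and 22.0 FPKM in WT and at 43.2, 37.4 and 35.3 FPKM in VC libraries. It was 1.82-fold higher in VC cells (log2 fold change 0.87, SE 0.15, adjusted p = 0.00255), with every VC library above every WT library. *Il3ra* (chr14:14346275-14356011), which binds IL-3, was at 5.60, 15.1 and 3.27 FPKM in WT and at 0.707, 0.565 and 0.531 FPKM in VC libraries, from 256, 665 and 162 counts against 36, 29 and 27. It was lower in every VC library (log2 fold change -3.72, SE 0.58, adjusted p = 0.00184), the largest change of the 10 genes in size with all 6 libraries, though not without replicate 2 or 13 or on log2(FPKM + 1), where *Csf3r* changed more. Its WT libraries spread widely, with replicate 2 far above the others, and without that library the log2 fold change was -2.87. An antisense gene at the same place, Gm48860, had 5, 8 and 1 counts in WT and 0 in each VC library. *Il5ra* (chr6:106710357-106749037), which binds IL-5, was at 3.25, 2.77 and 3.22 FPKM in WT and at 3.23, 5.29 and 4.71 FPKM in VC libraries. Replicate 11 lay within the WT range and the other VC libraries above it. The log2 fold change was 0.53 with a 95% interval from 0.04 to 1.01 before adjustment, and the adjusted p was 0.074 (0.0248 without replicate 11).

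Set against the summed β chains of the same library, the summed α chains rose. The ratio of the summed FPKM of *Csf2ra*, *Il3ra* and *Il5ra* to that of *Csf2rb* and *Csf2rb2* was 0.0455, 0.0458 and 0.0529 in WT and 0.166, 0.154 and 0.134 in VC libraries (means 0.048 ± 0.0042 and 0.151 ± 0.0161, SD, n = 3; exact permutation test, 2-sided, p = 0.1, the smallest possible). Both parts of the ratio moved, since the β chains fell while *Csf2ra* rose. *Csf2ra* alone came to 3.35, 2.25 and 4.08% of the summed β chain level in WT and to 15.2, 13.3 and 11.7% in VC libraries. *Il3ra* came to 0.757, 1.97 and 0.606% and to 0.249, 0.201 and 0.175%. Of the 3 α chain transcripts, *Csf2ra* was thus the most abundant in all 6 libraries, and *Il3ra* was above *Il5ra* in each WT library, though in replicate 3 only by 3.27 against 3.22 FPKM, and below it in each VC library.

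*Epor* (chr9:21958897-21963506), the receptor of erythropoietin, was higher in VC cells, with little spread. Its levels were 16.4, 16.3 and 17.8 FPKM in WT and 42.4, 46.1 and 42.1 FPKM in VC libraries, a 2.60-fold difference (log2 fold change 1.38, SE 0.09, 95% interval 1.18 to 1.58, adjusted p = 4.44e-05). Erythroid genes moved in the same direction in these sorted cells. All 11 erythroid markers tested were higher in VC cells, among them the globin genes *Hbb-bs* (log2 fold change 0.92, adjusted p = 0.00461) and *Hba-a1* (2.36, adjusted p = 0.000225), and none was at 0 in any group. Their summed level ran from 1918 to 2684 counts per 1000000 (CPM) in WT and from 6648 to 7689 CPM in VC libraries. Per 1000 counts of these markers, *Epor* had 12.2, 17.1 and 13.5 counts in WT and 12.4, 12.02 and 12.8 in VC libraries, ranges that overlapped. In bulk samples such as these, more cells of a type and more RNA per cell cannot be told apart, and the part of erythroid cells in the *Epor* difference was not tested.

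*Csf3r* (chr4:126024550-126044440), the receptor of G-CSF, had the largest increase of the 10 genes. It was at 0.773, 0.895 and 2.29 FPKM in WT and at 19.3, 14.5 and 4.28 FPKM in VC libraries, from 43, 48 and 138 counts against 1197, 905 and 265. The groups did not overlap, but within each group 1 library stood apart, replicate 3 high among WT and replicate 13 low among VC libraries. The change was 9.58-fold, with a 95% interval from 3.54 to 26.0 (log2 fold change 3.26, SE 0.62, adjusted p = 0.00441), and without replicate 3 the log2 fold change was 3.93.

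*Il6ra* (chr3:89864059-89913196), the IL-6 binding chain, was the least abundant of the 10 genes in WT cells and had the same order of libraries as *Csf3r* within each group. It was at 0.188, 0.210 and 0.471 FPKM in WT and at 1.37, 0.991 and 0.601 FPKM in VC libraries, from 25, 27 and 68 counts against 203, 148 and 89. The log2 fold change was 1.77 (SE 0.45, adjusted p = 0.0146), and without replicate 11 it was 1.46 and no longer past the threshold (adjusted p = 0.0537).

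Neutrophil genes shared with both receptors the difference between groups and the places of replicates 3 and 13 within them. All 11 neutrophil markers tested were higher in VC cells, among them *S100a9*, a subunit of calprotectin (log2 fold change 3.20, adjusted p = 0.00391; 3.86 without replicate 3), and *Ngp*, a granule protein (2.90, adjusted p = 0.00579; 3.62 without replicate 3), and none was at 0 in any group. Their summed level was 201, 165 and 508 CPM in WT and 3880, 2494 and 1017 CPM in VC libraries, so that replicate 3 was again the highest of its group and replicate 13 the lowest. Per 1000 counts of these markers, *Csf3r* had 13.9, 19.7 and 16.4 counts in WT and 18.2, 21.1 and 15.5 in VC libraries. These ranges overlapped. *Il6ra* had 8.07, 11.1 and 8.10 counts per 1000 in WT and 3.09, 3.46 and 5.20 in VC libraries, ranges that did not overlap. The part of neutrophils or their precursors in both differences was not tested, and the libraries came from cells sorted for GFP, the marker of the leukemia.

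**Figure D2:**
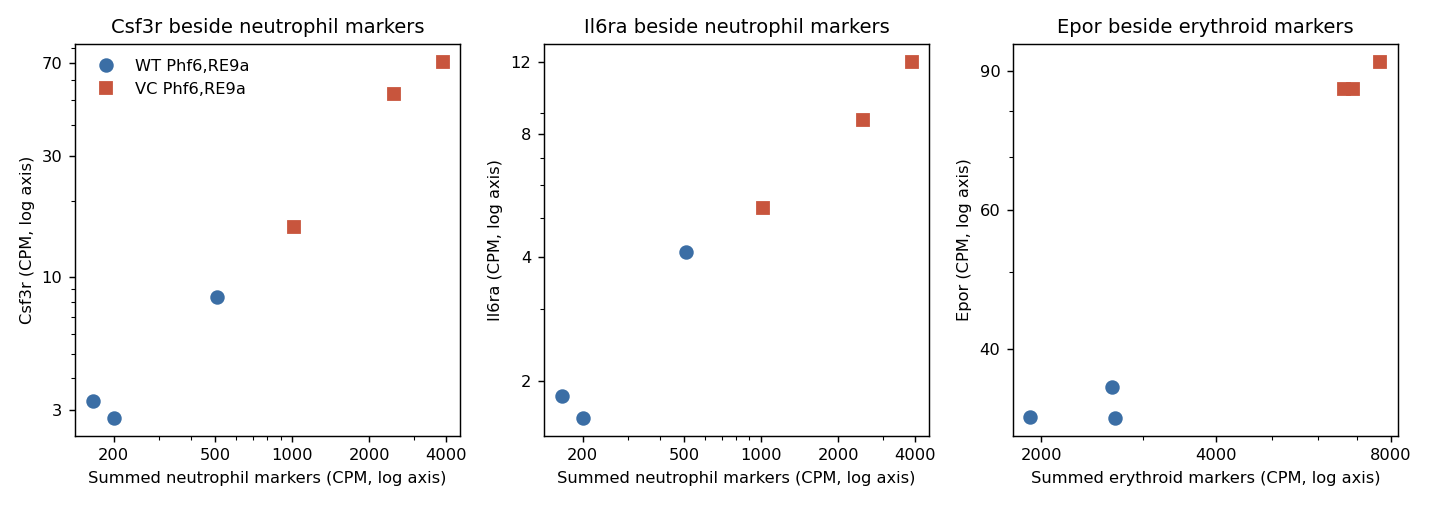
CPM of *Csf3r* and *Il6ra* against the summed CPM of 11 neutrophil markers, and of *Epor* against the summed CPM of 11 erythroid markers, on log axes, with 1 point per library. *Csf3r* and the neutrophil markers are lowest in WT replicates 1 and 2 and highest in VC replicates 11 and 12, with WT replicate 3 and VC replicate 13 between them.

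*Il2rg* (chrX:101264378-101268255), the common γ chain, was at 63.6, 54.5 and 65.6 FPKM in WT and at 19.1, 17.6 and 16.3 FPKM in VC libraries. It was 3.45-fold lower in VC cells, with libraries of a group close together (log2 fold change -1.79, SE 0.11, adjusted p = 3.73e-05). A gene annotated over its whole length on the same strand, Gm20489, was listed at 0 in all 6 libraries. *Il4ra* (chr7:125552120-125579474), the chain that pairs with *Il2rg* to bind IL-4, changed less. It was at 35.9, 26.0 and 23.6 FPKM in WT and at 19.8, 17.0 and 19.97 FPKM in VC libraries (log2 fold change -0.58, SE 0.16, adjusted p = 0.0202), and the call was lost without replicate 11 (adjusted p = 0.0526) or replicate 12 (adjusted p = 0.078).

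**Figure D3:**
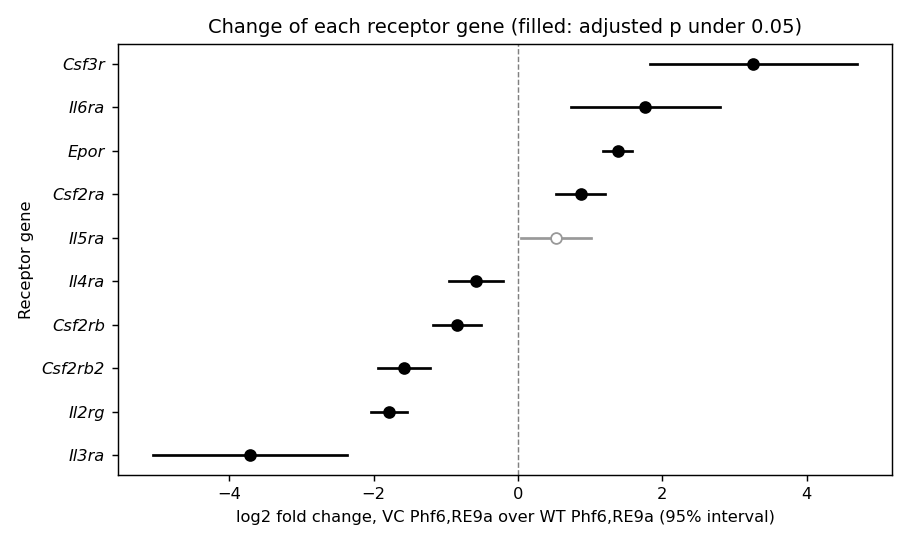
Log2 fold change of each receptor gene in VC over WT cells with its 95% interval from edgeR, filled where the adjusted p is under 0.05. The changes run from -3.72 for *Il3ra* to 3.26 for *Csf3r*, the genes with the widest intervals, and only *Il5ra* is not called.

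The order of the levels, on the authors' gene lengths, differed between the groups. With transcript lengths, *Csf2rb2* over *Csf2rb* had a mean of 0.947 in WT and 0.573 in VC cells, so which β chain led in WT cells rests on the length used. In WT cells, *Csf2rb2* and *Csf2rb* led, with means of 399 and 283 FPKM and ranges that overlapped, followed by *Il2rg* (61.2 FPKM), *Il4ra* (28.5), *Csf2ra* (21.3), *Epor* (16.9), *Il3ra* (7.98), *Il5ra* (3.08), *Csf3r* (1.32) and *Il6ra* (0.290). The ranges of *Il4ra* and *Csf2ra*, and of *Csf2ra* and *Epor*, overlapped too. In VC cells, *Csf2rb* (156 FPKM) and *Csf2rb2* (133) led without overlap, and *Epor* (43.6) and *Csf2ra* (38.7), whose ranges overlapped, came next, above *Il4ra* (18.9) and *Il2rg* (17.7), which overlapped as well. *Csf3r* (12.7), with the widest range of the VC genes relative to its mean, overlapped *Il4ra*, *Il2rg* and *Il5ra* (4.41), and *Il6ra* (0.987) and *Il3ra* (0.601), which overlapped, were the lowest.

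The 10 genes together gave 891, 899 and 677 FPKM in WT and 434, 420 and 427 FPKM in VC libraries. The β chains made up 82.6 ± 2.84% of that sum in WT and 67.8 ± 2.81% in VC cells (SD, n = 3). The other 8 genes added up to 141 ± 8.98 FPKM and 137 ± 12.8 FPKM, so that the net fall of the total lay in the β chains. Among these 8 genes, falls and rises offset each other. *Il2rg* went from a mean of 61.2 to 17.7 FPKM, and *Il4ra* and *Il3ra* were lower too. *Epor* went from 16.9 to 43.6 FPKM and *Csf2ra* from 21.3 to 38.7 FPKM, and *Csf3r* and *Il6ra* were higher too. Within the sum, *Epor* went from 2.10 ± 0.459% to 10.2 ± 0.663% and *Csf2ra* from 2.65 ± 0.678% to 9.05 ± 0.853%. *Csf2rb* kept to 34.3 ± 0.487% and 36.6 ± 2.04%, while *Csf2rb2* went from 48.3 ± 2.36% to 31.2 ± 0.777%. These shares are compositional, rest on the authors' gene lengths and are given as a description.

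**Figure D4:**
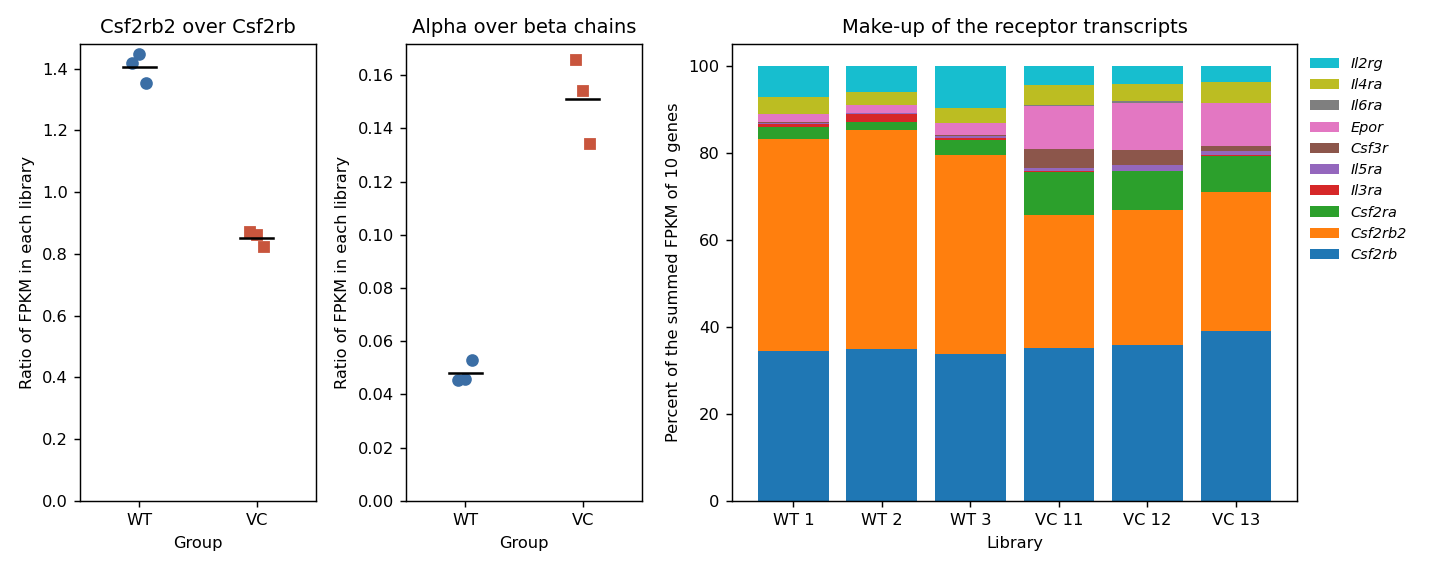
Left and middle, ratio of FPKM of *Csf2rb2* over *Csf2rb* and of the summed α chains over the summed β chains in each library (points) with group means (bars). Right, percent of the summed FPKM of the 10 genes in each library, in which the β chains take 82.6% on average in WT and 67.8% in VC cells. All FPKM rest on the authors' gene lengths.

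Promoters were looked at for 9 of the 10 genes, those with an entry in RefSeq (GRCm38.p6), over 250 bases before to 50 bases after the start site and on both strands. The 120 bases before the start site are shown for *Csf3r* and *Epor*, the genes that moved with neutrophil and erythroid markers, and for *Csf2rb2*, the β chain that fell more. Capitals mark letters of a motif searched, on either strand, and each line ends at the base before the RefSeq start site. That site can differ from the deposited gene start. The deposited *Csf3r* begins at chr4:126024550, so most of the bases shown for it, the motif match among them, lie within the deposited gene. The deposited *Epor*, on the minus strand, begins at chr9:21963506, downstream of its RefSeq start site.
Csf3r, chr4:126024539-126024658, plus strand: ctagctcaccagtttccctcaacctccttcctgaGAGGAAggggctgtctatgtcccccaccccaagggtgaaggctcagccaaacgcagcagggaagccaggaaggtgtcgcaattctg
Epor, chr9:21963577-21963696, minus strand: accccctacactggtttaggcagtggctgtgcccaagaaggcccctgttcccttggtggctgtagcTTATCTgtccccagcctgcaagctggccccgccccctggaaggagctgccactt
Csf2rb2, chr15:78305722-78305841, minus strand: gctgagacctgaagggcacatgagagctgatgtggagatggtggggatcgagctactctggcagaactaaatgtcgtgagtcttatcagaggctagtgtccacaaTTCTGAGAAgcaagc
The PU.1 motif, searched as GAGGAA, was found in 5 of the 9 promoters, *Csf2ra*, *Csf2rb2*, *Csf3r*, *Il5ra* and *Il6ra*, and in 28.3% of all 32851 RefSeq promoters. PU.1 is a transcription factor of myeloid cells. The GATA motif, searched as AGATAA, was found in *Epor*, *Il5ra* and *Il6ra*, and in 11.2% of all promoters. The RUNX motif, searched as TGTGGT, belongs to the DNA-binding domain that RE9a keeps from RUNX1, and was found in *Epor* and *Il2rg*, and in 16.8% of all promoters. The STAT motif, searched as TTCNNNGAA, was found in *Csf2rb2*, and in 8.3% of all promoters. C/EBP letters (TTGCNNAA) were found in *Il3ra* and in 10.8% of all promoters, and NF-κB letters (GGNNTTTCC) in *Il4ra* and in 5.8%. Counted from the start site, the first base of the match lay at -86 in *Csf3r* (PU.1), at -54 in *Epor* (GATA) and at -15 in *Csf2rb2* (STAT), and *Csf2ra* had PU.1 letters at -14 and again at -8. A match of letters is a description and not a binding site, and no binding was measured here.

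The ligands of these receptors were mostly near 0 in the leukemia cells themselves. Of 13 ligand genes, 4 had enough counts to be tested, and 3 of these were lower in VC cells. Over all genes tested, 22.7% were called lower and 21.5% higher. *Il6* was at 522, 418 and 447 counts in WT and at 20, 18 and 5 in VC libraries (log2 fold change -5.13, adjusted p = 7.22e-05). *Il13* was at 857, 434 and 480 counts against 24, 21 and 37 (log2 fold change -4.55, adjusted p = 9.69e-05), and *Il4* at 1011, 1047 and 836 against 765, 657 and 647 (log2 fold change -0.62, adjusted p = 0.00998). Thus for IL-6 the ligand transcript was lower and that of its binding chain higher in VC cells, and for IL-4 both were lower. *Csf2*, which encodes GM-CSF and was named after its values were seen, had 7, 6 and 4 counts against 0, 1 and 0, too few to be tested.

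Of 8 partner chains, which complete the receptors of the 10 genes, 7 were tested, 3 were higher and 1 was lower. Both directions together are near the 44.2% called over all genes tested. *Il9r*, the IL-9 binding chain and a partner of the γ chain, was at 1533, 1110 and 1465 counts in WT and at 3049, 2007 and 3346 in VC libraries (log2 fold change 0.91, adjusted p = 0.00804), opposite in direction to *Il2rg*. *Il2ra*, the IL-2 binding chain, had 60, 195 and 38 counts against 14, 19 and 6 (log2 fold change -3.07, adjusted p = 0.0118; -2.02 without replicate 2). *Il7r*, the IL-7 binding chain, had at most 58 counts in a library (log2 fold change 2.69, adjusted p = 0.0221; 3.79 without replicate 2), and its call was lost without replicate 1, 3, 11 or 12 (adjusted p from 0.0587 to 0.0777). *Il6st*, which encodes gp130, was at 20, 78 and 47 counts in WT and 111, 104 and 68 in VC libraries, with an adjusted p of 0.196 (0.0331 without replicate 2).

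Of 17 other class I receptors, 6 were tested, 3 were higher and 1 was lower, against 21.5% and 22.7% of all genes tested. *Lifr*, the receptor of leukemia inhibitory factor, went from 7, 24 and 24 counts in WT to 1210, 1521 and 1087 in VC libraries (log2 fold change 5.98, SE 0.33, adjusted p = 2.84e-05). *Il31ra*, the IL-31 binding chain, went from 0, 2 and 4 counts to 133, 268 and 139, and its log2 fold change of 6.28 (adjusted p = 0.000254) rests on few counts in WT cells (7.15 without replicate 3). *Il11ra1*, the IL-11 binding chain, had 109, 280 and 137 counts against 649, 708 and 766 (log2 fold change 1.87, adjusted p = 0.00385). *Il27ra*, a chain of the IL-27 receptor, had 169, 71 and 117 counts against 23, 23 and 23 (log2 fold change -2.49, adjusted p = 0.00113). *Crlf2*, the receptor chain for TSLP, was at 801, 2107 and 1227 counts against 1173, 967 and 1315, and was not called (adjusted p = 0.365).

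Genes downstream of the receptors were called lower more often than higher. Over all genes tested, 22.7% were called lower and 21.5% higher. Of 11 JAK and STAT genes, 8 were lower and 0 higher (median log2 fold change -0.44). In this list and in every other list with no gene called in a direction, no gene had an unadjusted p under 0.05 in that direction from edgeR, and none was called in it by DESeq2, with all 6 libraries. Without replicate 2, however, 2 JAK and STAT genes were called higher beside 8 lower. *Jak2*, the kinase of the β chain, Epo and G-CSF receptors, was at 3971, 4466 and 4192 counts in WT and 3048, 3441 and 3370 in VC libraries (log2 fold change -0.49, adjusted p = 0.00618). *Jak1* (-0.35, adjusted p = 0.0186) and *Stat5b*, which carries signals of the β chain and Epo receptors (-0.31, adjusted p = 0.024), fell by less, and these calls were lost without replicate 11 or 12 and, for *Stat5b*, also without replicate 1 or 13. *Stat4*, which acts in IL-12 signaling, had the largest change (189, 456 and 113 counts against 24, 6 and 7; log2 fold change -4.50, adjusted p = 0.00222), and the value moved to -3.71 without replicate 2 and to -5.41 without replicate 11.

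Of 10 receptor adaptors, 5 were lower and 0 higher, with a median log2 fold change of -0.28. *Gab2*, a docking protein that links the receptors to PI3K, was at 7182, 6324 and 6602 counts in WT and at 2101, 1979 and 2239 in VC libraries (log2 fold change -1.80, adjusted p = 2.91e-05). *Irs2*, a docking protein of the IL-4 receptor, had 3504, 4418 and 2827 counts against 1007, 681 and 865 (log2 fold change -2.21, adjusted p = 0.000285). *Pik3cd*, a catalytic subunit of PI3K, was lower (-1.13, adjusted p = 0.00168), while *Grb2*, which couples receptors to RAS, had an adjusted p of 0.0793 and a log2 fold change of -0.22. Without replicate 11 or 13, 3 adaptors were called, all lower. Without replicate 1, 4 were lower and 1 was higher, *Shc1*, named after its values were seen.

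Genes that restrain these receptors were lower as well. Of 9 inhibitors, 6 were lower and 0 higher, with a median log2 fold change of -0.64. *Inpp5d*, which encodes the phosphatase SHIP1, was at 13264, 13134 and 10704 counts in WT and at 6778, 6249 and 7084 in VC libraries (log2 fold change -1.02, adjusted p = 0.00102). *Sh2b3*, which encodes the JAK2 inhibitor LNK, was lower (-1.70, adjusted p = 0.000132). *Ptpn6*, the phosphatase SHP-1, had a log2 fold change of -0.03 (adjusted p = 0.861), and *Cbl*, a ubiquitin ligase, of 0.19 (adjusted p = 0.265).

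Of 10 genes known to respond to STAT5, 5 were lower and 1 higher, with a median log2 fold change of -0.45. *Pim1*, a kinase, was at 5520, 4612 and 4926 counts in WT and at 4493, 4216 and 3577 in VC libraries (log2 fold change -0.42, adjusted p = 0.0198), a call lost without replicate 1, 12 or 13 (adjusted p from 0.0575 to 0.0739). *Ccnd3*, which encodes cyclin D3, was higher (0.94, adjusted p = 0.000584). *Ccnd2*, cyclin D2, and *Mcl1*, a survival factor, were at log2 fold changes of -0.14 (adjusted p = 0.312) and -0.16 (adjusted p = 0.355). *Il2ra* is counted here as well as among the partner chains, and the 2 genes *Cish* and *Socs2*, named here after their values were seen, are counted both as inhibitors and as STAT5 response genes, with log2 fold changes of -0.64 (adjusted p = 0.0085) and -0.47 (adjusted p = 0.00438).

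**Figure D5:**
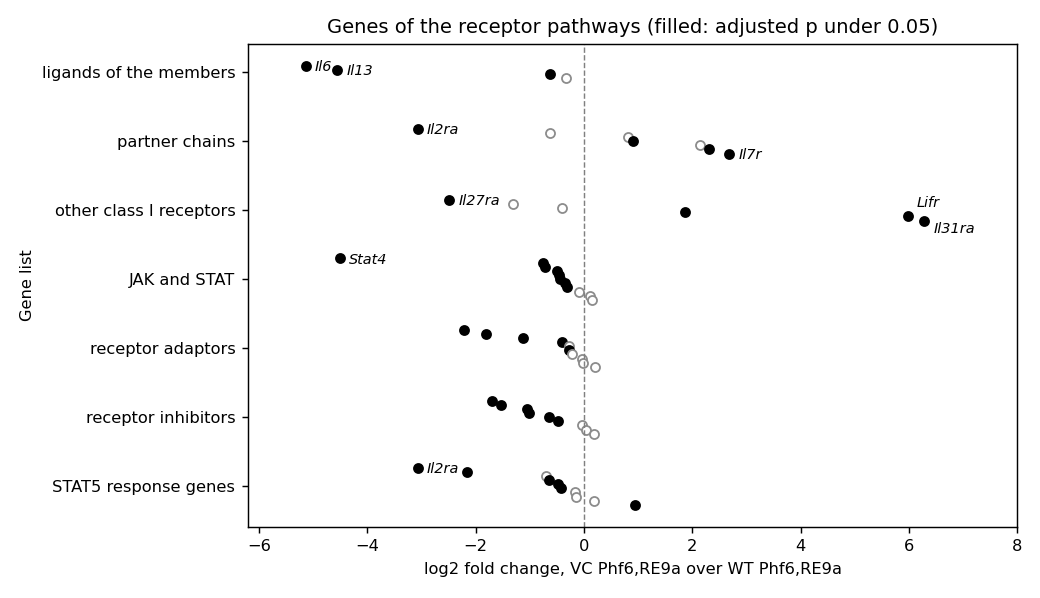
Log2 fold change in VC over WT cells of each tested gene of 7 lists around the 10 receptor genes, filled where the adjusted p from edgeR is under 0.05, with named genes beyond 2.4 on the log2 scale labelled. JAK and STAT genes, adaptors and inhibitors have no filled point to the right of 0 in this fit to all 6 libraries.

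Other cell type markers moved between the groups as well, and their part in the receptor differences was not tested. To set beside the counts of every marker list, 21.5% of all genes tested were called higher and 22.7% lower. Of 11 mast cell and basophil markers, 10 were lower and 0 higher in VC cells, led in level by *Hdc* (log2 fold change -1.22, adjusted p = 0.00416) and *Cpa3* (-4.62, adjusted p = 0.000103). Their summed level ran from 19098 to 30037 CPM in WT and from 4976 to 5426 CPM in VC libraries. *Il3ra* had 0.609, 1.502 and 0.513 counts per 1000 counts of these markers in WT and 0.427, 0.335 and 0.296 in VC libraries, ranges that did not overlap. Of 10 eosinophil markers, which include *Il5ra*, 7 were higher and 0 lower, with *Siglecf* (0.93, adjusted p = 0.00338) and *Prg2* (3.11, adjusted p = 0.00794; 3.86 without replicate 3 and 2.38 without replicate 12) at the highest levels, and their sum ran from 55.7 to 78.2 CPM and from 143 to 209 CPM. Per 1000 counts of the other 9, *Il5ra* had 264, 212 and 175 counts in WT and 88.8, 100.1 and 113 in VC libraries, ranges that did not overlap.

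The remaining lists had lower sums or moved both ways. Of 10 macrophage and monocyte markers, 2 were higher and 0 lower (*Ly6c2* at 2.28, adjusted p = 0.00338, and *Cd68* at 0.58, adjusted p = 0.0472, a call lost without replicate 1, 2, 11 or 12, with adjusted p from 0.111 to 0.15), with sums from 39.7 to 55.6 CPM and from 78.2 to 138 CPM. Without replicate 3, 1 of them was called lower, *Cd163*, named after its values were seen. Of 8 progenitor markers, 5 were higher and 2 lower, among the latter the most abundant, *Kit* (-3.15, adjusted p = 7.75e-05) and *Cd34* (-4.63, adjusted p = 0.00347; -3.61 without replicate 2 and -5.69 without replicate 12), so that the sum ran from 2166 to 3509 CPM in WT and from 433 to 659 CPM in VC libraries. *Kit*, counted also among the mast cell and basophil markers, made up much of that sum, with means of 2420 CPM in WT and 273 CPM in VC cells. Of 8 megakaryocyte markers, 4 were tested, 2 were higher, *Gp5* among them (0.70, adjusted p = 0.00439), and 1 was lower, *Itga2b* (-4.05, adjusted p = 2.84e-05). Lymphoid markers were scarce, with sums of at most 10.6 CPM for T cell, 29.8 CPM for B cell and 8.68 CPM for NK cell markers in any library. Of these, 1 of 10 T cell markers was tested and higher (*Lck*, 3.25, adjusted p = 0.000562, while *Cd8a* had at most 24 counts), as were 4 of 9 B cell markers, with *Pax5* (5.14, adjusted p = 0.00624; 9.27 without replicate 3) on 0 to 6 counts in WT libraries, and 1 of 8 NK cell markers, *Nkg7* (1.18, adjusted p = 0.0424; lost without replicate 2, 3, 11 or 12, with adjusted p from 0.0778 to 0.132), while *Klrd1* had at most 19 counts.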

How the data were processed

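Per gene, the authors deposited whole-number read counts and FPKM that equal these counts divided by the deposited gene length and a library size scaled by size factors. Their deposited comparison columns (group means, log2 fold changes and p-values) were not used. Libraries were made with the TruSeq kit from 1 µg RNA and sequenced as 150-bp paired-end reads. The submitters' processing notes name Bowtie 0.12.0 and mm8 without a role. The counting tool, annotation and strandedness are not given in the sources used here, so antisense genes cannot be told apart. Of 54495 genes with an identifier in GENCODE M21, 98.33% had the same start and end there, 9 of the 10 receptor genes among them (all but *Csf2ra*), so coordinates are as deposited, on GRCm38.

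In R 4.3.3, counts were filtered (filterByExpr), scaled by TMM and compared with edgeR 4.0.16's quasi-likelihood test at an adjusted p of 0.05, over all genes tested. The script was tested on simulated data. CPM are TMM-scaled. A count of 0 allows up to 3 counts, at most 0.204 CPM in any library. That limit covers counting error only. Pairs of libraries within a group differed by a chi-square per gene from 11.8 to 46.4. Alternatives were DESeq2 1.42.0, RLE size factors, no filter, 10 counts in every library, limma 3.58.1 on log2(FPKM + 1) or log2(FPKM + 0.1), other thresholds, and each library left out. A gene's log2 fold change from limma is on the log2(FPKM + pseudocount) scale. The receptor genes and the lists, written by hand, were chosen with earlier results of these data known. Beside *Phf6* and the 10 receptor genes, the rule named the 3 most abundant genes of each pathway list and its largest called change in each direction, and the 2 most abundant of each marker list, and some genes are not reported here. Promoters are from RefSeq (GRCm38.p6). *Csf2rb* had no entry.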

Additional observations from a re-analysis of the deposited data

How the results depend on the processing

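Directions of the 10 receptor genes were the same in all 13 alternatives. Among these, the threshold of 0.01 keeps the main estimates, so it could not change a direction. The number called ran from 6, in a further setting that asked for a change of at least 2-fold, to 9. Leaving out libraries ended the calls of *Il6ra* and *Il4ra* and gave one for *Il5ra*, as stated with each gene. At an adjusted p of 0.01, *Il6ra* (0.0146) and *Il4ra* (0.0202) were not called. On log2(FPKM + 1), limma gave smaller changes for genes of low level, 0.61 for *Il6ra*, -2.26 for *Il3ra* and 2.41 for *Csf3r*, all past the threshold. At an adjusted p of 0.01, 3800 genes were called in all, 2 partner chains, 5 JAK and STAT genes and 3 adaptors. With a change of at least 2-fold, 3035 genes were called in all, 1 JAK or STAT gene, 3 adaptors and 2 STAT5 response genes. With at least 10 counts in every library, fewer genes were tested, and 1 partner chain and 2 other class I receptors were called. With each library left out in turn, adaptors called ranged from 3 to 5. The β chain ratio and the α to β ratio kept their direction in all alternatives run. The *Csf2rb2* to *Csf2rb* difference between group means, -0.56, was -0.37 with transcript lengths. No paired analysis was possible because the groups share no replicate number. Genes under about 10 counts, most ligands among them, are limited by depth.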
